A study of Mus musculus with 9 samples.

Results

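The comparison described here is LIF withdrawal in mouse embryonic stem (ES) cells transfected with the L122A form of Nanog. It sets the L122A no-LIF library against the L122A LIF library, 2 of the 9 RNA sequencing libraries of the series, and its members are defined by culture and transfectant. Of 33495 genes in the table, 9913 reached 5 CPM (read counts scaled to library size) in the higher of these libraries and are described by the log2 ratio of their CPM, no-LIF over LIF, with a prior count of 2. There was 1 library a side, so no gene was tested, no p-value is given, and the 95% Poisson interval beside a fold covers counting error only. A gene is called here when it differed by 2-fold or more. A gene that reached 5 CPM in 1 of the libraries alone was admitted by its higher value, so for several lists the median over all members in the file is given beside that of the members at 5 CPM.

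All libraries came from RF8, a mouse ES cell line, as total RNA. The cells carried a Nanog L122A, a wild-type Nanog (WT) or an enhanced green fluorescent protein (EGFP) construct; the series title places the Nanog changes in the homeodomain, the DNA-binding part of the protein. Each transfectant was grown without LIF, without LIF but with 5 µM retinoic acid (RA), or in the routine medium with fetal calf serum, puromycin and 1000 units of LIF per ml. The labels name no separate clone, no time in culture, no promoter for the constructs and no species for the transfected Nanog, and they do not say whether puromycin was kept in the cultures without LIF. The columns taken as L122A LIF, WT LIF and EGFP LIF carry a name that is in no label and were given to those cultures by elimination.

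LIF, leukaemia inhibitory factor, is a cytokine that holds mouse ES cells in the naive state, the counterpart of the epiblast before implantation. It binds the LIF receptor and its partner gp130, which activate JAK kinases; these phosphorylate STAT3, which enters the nucleus and switches on genes such as Socs3, Klf4 and Tfcp2l1. Cells released from naive self-renewal pass through a formative state, in which genes of the epiblast after implantation such as Otx2, Lef1 and Fgf5 are expressed. Nanog is a transcription factor of the naive state whose forced expression is known to let ES cells self-renew without LIF.

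The L122A libraries held 24386322 counts without LIF and 24166395 with LIF, within a range of 24166395 to 28714988 over the 9. Genes for ribosomal RNA took 22.8% of counts without LIF and 20.6% with LIF, and mitochondrial genes took 11.5% and 9.11%. The ES cell markers Pou5f1, Sox2, Nanog, Zfp42, Sall4, Utf1, Dppa5a and Tdgf1 were all above 5 CPM in both libraries. Of 9 extraembryonic endoderm markers, 5 trophectoderm markers and 5 mesoderm markers, 0 reached 5 CPM in either library. Of 9 fibroblast markers 0 reached it without LIF and 1, Thy1, with LIF, and of 5 neural markers 2 did in each. The fibroblast markers summed to 10.2 CPM without LIF and 20.5 CPM with LIF, and their part in the results was not tested.

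Nanog, the transfected gene (ENSMUSG00000012396, mm9 chromosome 6, 122657507 to 122664651), had 130 CPM in L122A no-LIF cells and 239 CPM in L122A LIF cells. It was 1.84-fold lower without LIF (interval 1.76 to 1.93), which is short of 2-fold. With total counts in place of trimmed-mean scaling its log2 ratio was -1.06, past 2-fold, against -0.88 in the scaling used here. It had 168 CPM in WT no-LIF and 222 CPM in WT LIF cells, and 290 CPM in EGFP no-LIF and 384 CPM in EGFP LIF cells. With RA it had 258 CPM in L122A, 195 CPM in WT and 0.871 CPM in EGFP cells. These counts do not separate transfected from endogenous transcripts, and they do not show the L122A change itself.

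In L122A cells without LIF, 287 genes were higher (2.9% of those at 5 CPM) and 306 lower (3.09%), 593 in all (5.98%). In bulk RNA, fewer cells expressing a gene and less RNA per cell cannot be told apart. The whole Poisson interval lay beyond 2-fold for 132 of the higher genes (1.33%) and 153 of the lower ones (1.54%). The share of higher genes among the calls, 48.4%, depended on scaling: with total counts 152 genes were higher and 444 lower (25.5% higher), and by the deposited FPKM values with a pseudocount of 1 there were 67 and 191 (25.97%). Total counts moved the median of all genes to -0.16 and FPKM to -0.13, against 0.02 here, so changes are read relative to that shift. Just past the threshold stood Glmn and Gm10800, with log2 ratios of 1.0012 and -1.0005, and just short of it were Dolpp1 and Serpinh1 at -0.9996 and -0.9993.

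The withdrawal ratios were narrower in L122A cells than in the other transfectants. The median absolute log2 ratio was 0.285 in L122A, 0.371 in WT and 0.345 in EGFP cells, and 80.7%, 70.7% and 70.6% of genes at 5 CPM lay within 1.5-fold. WT cells had 556 genes higher (5.54%) and 457 lower (4.55%) without LIF, 10.1% of genes in all, and EGFP cells 749 (7.44%) and 637 (6.33%), 13.8% in all. Changes of 4-fold or more numbered 32 higher and 45 lower genes in L122A, 107 and 74 in WT, and 177 and 218 in EGFP cells. The difference between transfectants was not tested, as each rests on 1 pair of libraries.

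**Figure D1:**
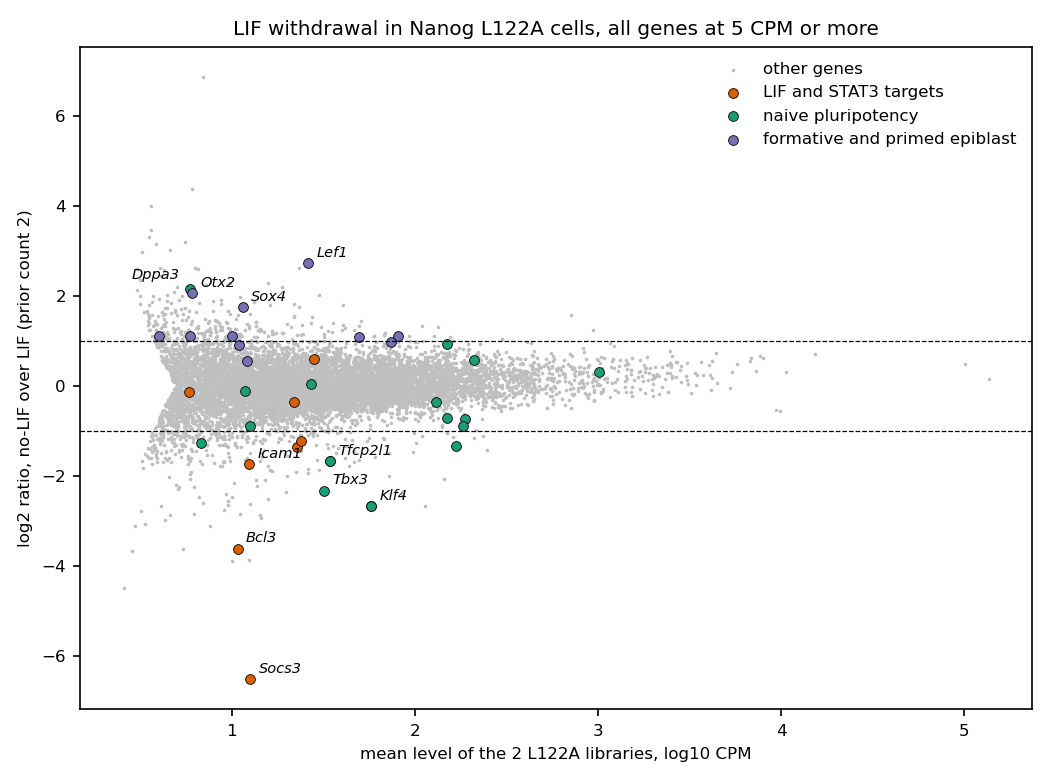
Log2 ratio (L122A no-LIF over L122A LIF, prior count 2) against the mean level of the 2 libraries in log10 CPM, for all 9913 genes at 5 CPM or more; each point is a gene, coloured by list, and dashed lines mark 2-fold. Socs3 lies lowest at -6.51, the LIF targets and several naive genes lie below the lines, and Lef1, Otx2 and Sox4 above.

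The largest decrease in the comparison was that of Socs3, the feedback inhibitor that STAT3 induces to switch off its own receptor. To show the letters STAT proteins are known to bind, TTCNNNGAA, a palindrome that reads alike on both strands, was searched in the RefSeq promoter windows (GRCm38.p6, 250 bases before to 50 after the start) of the list of LIF and STAT3 targets. Of the 12 listed genes with a window, 3 held it: Socs3, Icam1 and Cish. The 250 bases before the starts of Socs3 (chr11:117969367-117969616, minus strand) and Icam1 (chr9:21015690-21015939, plus strand), both called lower, are given 5′ to 3′ with the match in capitals.
Socs3: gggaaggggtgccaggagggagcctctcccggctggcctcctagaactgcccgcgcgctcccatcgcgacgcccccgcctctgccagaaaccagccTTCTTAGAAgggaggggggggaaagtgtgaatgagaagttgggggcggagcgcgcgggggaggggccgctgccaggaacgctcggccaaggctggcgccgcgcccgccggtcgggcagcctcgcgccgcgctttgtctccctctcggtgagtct
Icam1: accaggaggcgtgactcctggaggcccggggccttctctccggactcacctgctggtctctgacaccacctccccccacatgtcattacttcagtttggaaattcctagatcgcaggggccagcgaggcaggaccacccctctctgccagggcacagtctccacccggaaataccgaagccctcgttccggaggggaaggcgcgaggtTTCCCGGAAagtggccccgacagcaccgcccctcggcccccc
The match begins 154 bases before the Socs3 start and 42 bases before the Icam1 start. It was also present in 9.55% of all 27025 genes with a window, in 7.996% of genes at 5 CPM, in 11.3% of the genes called lower and in 10.9% of those called higher. A match is a description of these letters and not a site.

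Socs3 (ENSMUSG00000053113, mm9 chromosome 11, 117827393 to 117831361) had 4 counts in the L122A no-LIF library and 558 in the L122A LIF library. These are 0.202 CPM and 25.2 CPM, 124-fold lower without LIF (interval 48.3 to 458). In WT cells it had 0.653 CPM without LIF and 19.6 CPM with LIF, and in EGFP cells 4.08 CPM and 18.0 CPM. In each transfectant the no-LIF library was the lower one, with log2 ratios of -6.51 in L122A, -4.76 in WT and -2.12 in EGFP cells.

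Of 15 LIF and STAT3 targets found in the file, 10 reached 5 CPM, and 7 of these were lower and 0 higher. Over all genes at 5 CPM, 3.09% were lower and 2.9% higher. The median log2 ratio of the list was -1.51 (-1.36 over all 15) beside 0.02 for all genes. Bcl3, a nuclear partner of NF-κB, had 1.57 CPM in L122A no-LIF and 20.03 CPM in L122A LIF cells, 12.8-fold lower (8.87 to 19.02). Klf4, a naive transcription factor (mm9 chromosome 4, 55540015 to 55545347), had 15.7 CPM without LIF and 100.02 CPM with LIF, 6.36-fold lower (5.64 to 7.18). Icam1, an adhesion molecule, had 5.72 CPM and 19.3 CPM, 3.38-fold lower (2.74 to 4.19), and Tfcp2l1, a naive factor downstream of STAT3, 16.5 CPM and 52.6 CPM, 3.18-fold lower (2.81 to 3.60). The survival kinase gene Pim3 was 2.56-fold and the homeobox gene Gbx2 2.33-fold lower.

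The other listed targets at 5 CPM were not called. Pim1 had 5.57 CPM in L122A no-LIF and 6.14 CPM in L122A LIF cells, Socs2 19.3 CPM and 24.6 CPM, and Myc 34.1 CPM and 22.3 CPM. The level of Myc was therefore not lower without LIF (1.53-fold higher, interval 1.36 to 1.72). Below the minimum, the immediate early gene Junb had 3 counts without LIF and 61 with LIF.

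The signalling chain itself was also lower in part, with 3 of 10 members called lower and 0 higher. Among all genes at 5 CPM, 3.09% were called lower. The median of the chain was -0.72, the same over all 14. Stat3 had 13.0 CPM in L122A no-LIF and 47.5 CPM in L122A LIF cells, 3.66-fold lower (3.19 to 4.22), with log2 ratios of -1.87 in L122A, -1.86 in WT and -1.38 in EGFP cells. The kinase gene Jak2 had 5.87 CPM and 13.4 CPM in these libraries, 2.29-fold lower (1.84 to 2.86), whereas in EGFP cells it was called higher without LIF, with 15.2 CPM against 6.82 CPM. The receptor genes Lifr (20.8 CPM without and 39.2 CPM with LIF) and Il6st, which encodes gp130 (39.7 CPM and 50.2 CPM), were not called. With total counts 5 members were called lower, Lifr among them at a log2 ratio of -1.09.

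**Figure D2:**
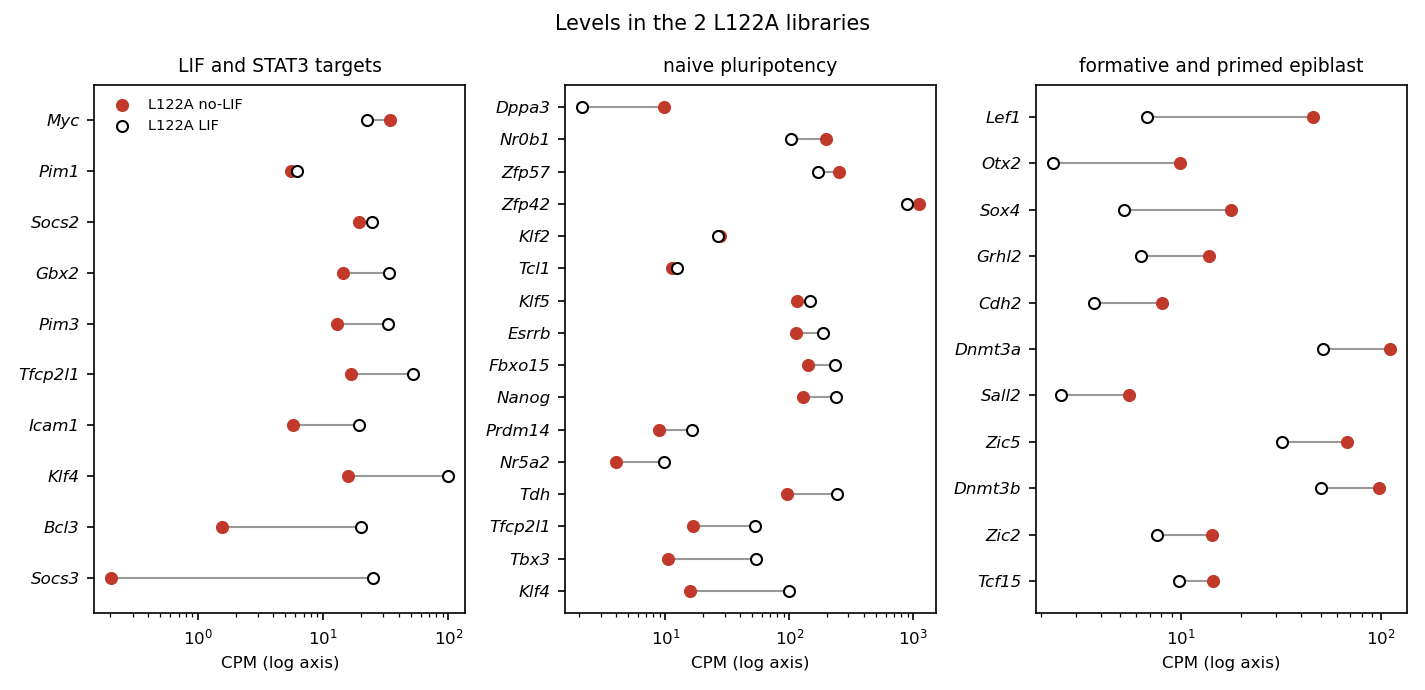
CPM on a log axis in the L122A no-LIF library (filled red) and the L122A LIF library (open), 1 library each, for the members at 5 CPM or more of 3 lists. Socs3, Bcl3 and Klf4 have the widest gaps to the left, the naive genes split in both directions, and all 11 formative members lie to the right without LIF.

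Naive pluripotency genes were only partly lower in L122A cells. Of 16 members, all at 5 CPM, 5 were lower, 1 higher and 10 not called, beside 3.09% lower and 2.9% higher among all genes. The median log2 ratio of the list was -0.73. The lower members were Klf4, Tbx3, Tfcp2l1, Tdh and Nr5a2. Tbx3, a T-box factor, had 10.6 CPM in L122A no-LIF and 53.3 CPM in L122A LIF cells, 5.04-fold lower (4.35 to 5.87), and Tdh, the threonine dehydrogenase on which mouse ES cells rely, had 95.03 CPM and 241 CPM, 2.54-fold lower (2.41 to 2.68). Nr5a2, a nuclear receptor, had 3.998 CPM and 9.70 CPM. With total counts 7 members were called lower, as Nanog and Prdm14 passed 2-fold.

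Several naive factors were not lower by 2-fold. Esrrb, an orphan nuclear receptor, had 114 CPM in L122A no-LIF and 187 CPM in L122A LIF cells, 1.64-fold lower (1.56 to 1.73). Zfp42 (Rex1) had 1119 CPM without LIF and 897 CPM with LIF, Klf2 27.5 CPM and 26.6 CPM, and Nr0b1 (Dax1) 196 CPM and 102 CPM, so that these were level or higher without LIF. Dppa3 (Stella), a maternal and germline factor, was the member called higher, with 9.72 CPM without and 2.12 CPM with LIF, 4.58-fold (3.32 to 6.45).

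The same genes were also compared across the transfectants, where no difference was tested. Of the 16 naive genes, 5 were called lower and 1 higher in L122A, 7 lower and 1 higher in WT, and 14 lower and 0 higher in EGFP cells, with medians of -0.73, -0.88 and -3.27. The log2 ratio of Esrrb was -0.72 in L122A, -0.75 in WT and -5.02 in EGFP cells, where it had 3.47 CPM without LIF and 114.6 CPM with LIF. That of Zfp42 was 0.32, -0.84 and -3.39, and that of Nr0b1 0.94, -0.13 and -4.20. Klf4 and Tbx3 were instead lower in each, with log2 ratios of -2.66, -3.48 and -4.00 for Klf4 and of -2.33, -2.14 and -1.99 for Tbx3.

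General pluripotency genes, which are shared by naive and later pluripotent cells, were close to level in L122A cells: of 16, 1 was higher and 0 lower, with a median of -0.18. Pou5f1 (Oct4) had 446 CPM in L122A no-LIF and 453 CPM in L122A LIF cells, Sox2 49.6 CPM and 66.3 CPM, and Sall4 86.7 CPM and 133 CPM. The member called was Dppa5a, an RNA-binding protein gene, with 1319 CPM and 559.5 CPM, 2.36-fold higher (2.31 to 2.41). In WT cells 1 was higher and 0 lower (median 0.17), and in EGFP cells 0 were higher and 10 lower (median -1.26).

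**Figure D3:**
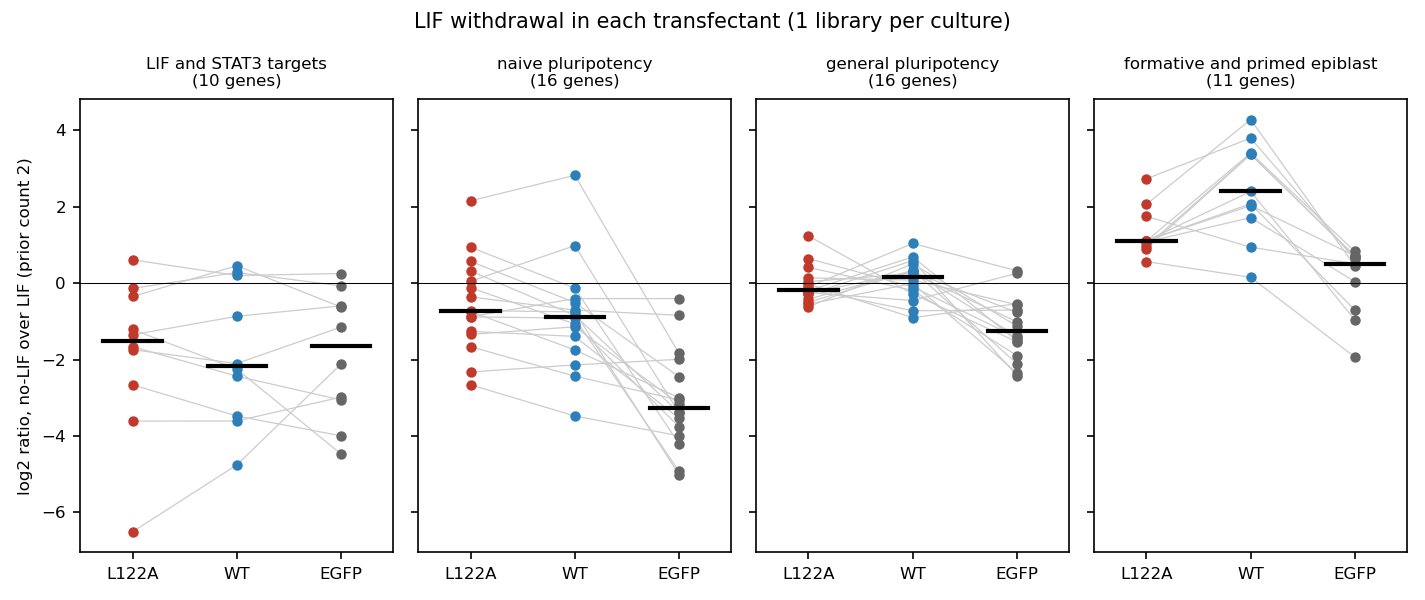
Log2 ratio, no-LIF over LIF, of the members at 5 CPM or more in L122A cells, in L122A (red), WT (blue) and EGFP (grey) cells; each point is a gene, thin lines join a gene, bars are medians, and each ratio rests on 1 library per culture. Naive medians are -0.73, -0.88 and -3.27, and formative medians 1.11, 2.40 and 0.51.

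Formative and primed epiblast genes were higher. Of 14 listed, 11 reached 5 CPM, and 8 of these were called higher and 0 lower, beside 2.9% of all genes called higher. The median was 1.11, the same over all 14. The 3 members still called higher under total counts were Lef1, Otx2 and Sox4, and FPKM left 2. Lef1, a transcription factor of Wnt signalling (mm9 chromosome 3, 130813389 to 130927274), had 45.7 CPM in L122A no-LIF and 6.81 CPM in L122A LIF cells, 6.72-fold higher (5.65 to 8.03). Otx2, which directs the exit to the formative state, had 9.87 CPM and 2.30 CPM, 4.29-fold higher (3.14 to 5.96). Sox4 had 17.8 CPM and 5.23 CPM, 3.39-fold higher (2.74 to 4.22).

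The remaining 5 called members lay near the threshold. Dnmt3a, a DNA methyltransferase that sets new methylation, had 111 CPM without LIF and 51.4 CPM with LIF, 2.16-fold higher (2.01 to 2.32). Zic5, Sall2, Grhl2 and Cdh2 were between 2.12-fold and 2.19-fold higher. Its partner enzyme gene Dnmt3b had 98.1 CPM and 50.03 CPM (1.96-fold higher, 1.82 to 2.11) and was not called.

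The log2 ratio was higher in WT than in L122A cells for 9 of these 11 members, a difference that was not tested. Otx2 had 139 CPM in WT no-LIF and 7.04 CPM in WT LIF cells, a log2 ratio of 4.29 against 2.07 in L122A and 0.45 in EGFP cells. The log2 ratio of Dnmt3b was 0.97 in L122A, 3.37 in WT and 0.70 in EGFP cells, that of Lef1 2.73, 3.80 and 0.62, and that of Sox4 1.75, 0.94 and 0.51. WT cells had 11 of 13 members at 5 CPM called higher and 0 lower, and EGFP cells 2 higher and 1 lower of 13. Fgf5, the standard marker of the epiblast after implantation, stayed below 5 CPM in L122A cells. It had 37 counts without LIF and 2 with LIF, or 1.87 CPM and 0.0902 CPM, a ratio of 20.8 (interval 5.35 to 177.7). It had 33.7 CPM in WT no-LIF cells and 0 counts in WT LIF cells, and it had 112 CPM in EGFP no-LIF and 5.22 CPM in EGFP LIF cells. Pou3f1, also below 5 CPM in L122A cells, was not higher there, with 2.83 CPM without LIF and 3.11 CPM with LIF. Its log2 ratio was -0.13 in L122A, 2.43 in WT and 2.28 in EGFP cells. Sox3, the remaining member below 5 CPM, had 1 count without LIF and 0 with LIF in L122A cells.

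Signalling genes of the pluripotent epiblast changed at few points. In the Nodal pathway 2 of 8 members, Lefty1 and Lefty2, were higher and 0 lower, beside 2.9% of all genes called higher. Lefty1 had 63.1 CPM in L122A no-LIF and 18.0 CPM in L122A LIF cells (3.50-fold higher, 3.13 to 3.93). Lefty2 had 58.2 CPM and 22.7 CPM (2.57-fold higher, 2.31 to 2.86). Both encode secreted Nodal antagonists that Nodal signalling induces. The ligand gene Nodal had 34.5 CPM and 32.0 CPM, and its co-receptor gene Tdgf1 1058 CPM and 1257 CPM, and neither was called. Of 7 BMP genes 1 was lower, the ligand gene Bmp4, with 14.9 CPM without LIF and 33.7 CPM with LIF. Of 13 FGF and ERK genes 1 was higher, the receptor gene Fgfr2 (5.72 CPM and 2.62 CPM), and of 8 Wnt targets 1, Lef1. The BMP, FGF and ERK, and Wnt lists thus held 1 called gene each, where 5.98% of all genes were called. Nothing particular to these lists is read from that. Under total counts Fgfr2 was not called, and 3 other FGF and ERK genes and 1 Nodal pathway gene were called lower.

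Epithelial genes were higher in part: 4 of 12 members were called higher and 0 lower, beside 2.9% of all genes called higher. The median was 0.62 (0.36 over all 14). This gain was also seen in the other transfectants. In WT cells 9 of 14 members at 5 CPM were called higher and 0 lower, and in EGFP cells 10 of 14 and 0. The medians of the same 12 genes were 1.09 in WT and 1.29 in EGFP cells. Epcam, an epithelial adhesion molecule, had 191 CPM in L122A no-LIF and 77.2 CPM in L122A LIF cells, 2.48-fold higher (2.34 to 2.62). Esrp1, a splicing factor of epithelial cells, had 19.9 CPM and 7.40 CPM, the tight junction gene Cldn7 5.62 CPM and 2.75 CPM, and the desmosome gene Dsp 9.11 CPM and 3.97 CPM. E-cadherin (Cdh1) had 121 CPM and 108 CPM and was not called. Among 6 mesenchymal genes the intermediate filament gene Vim was lower, with 101 CPM without LIF and 222 CPM with LIF, as was the protease gene Mmp14, while Cdh2 was higher. Vim was also lower in WT cells, with 23.5 CPM without LIF and 76.3 CPM with LIF. It went the other way in EGFP cells, with 446 CPM without LIF and 193 CPM with LIF.

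Of 13 primitive streak and mesoderm genes 1 reached 5 CPM, Mesp2, with 2.43 CPM in L122A no-LIF and 5.28 CPM in L122A LIF cells. It was admitted by its level with LIF alone, and relative to genes of like GC content its log2 ratio was -0.95, short of 2-fold. T (brachyury) had 0 counts in both L122A libraries, which allows up to 0.152 CPM without LIF and 0.135 CPM with LIF (3 counts). It had 105 CPM in EGFP no-LIF and 6.72 CPM in EGFP LIF cells. The 18 extraembryonic endoderm genes summed to 263 CPM without LIF and 441 CPM with LIF, of which the matrix protein gene Sparc held 147 CPM and 287 CPM. Of 5 members at 5 CPM 1 was called lower, the laminin gene Lama1, with 1.52 CPM without LIF and 13.7 CPM with LIF (9.03-fold lower, 6.20 to 13.6). Of 10 trophectoderm genes 2 reached 5 CPM, in the LIF library alone: Tfap2c (2.68 CPM without and 19.6 CPM with LIF, 7.30-fold lower) and Tead4 (1.77 CPM and 8.62 CPM, 4.87-fold lower). The median over all 10 was -0.40, and the defining trophectoderm markers were below 5 CPM in both libraries. The 15 neural genes summed to 63.9 CPM without LIF and 88.3 CPM with LIF. Of 4 at 5 CPM Sox11 was higher (14.8 CPM and 4.83 CPM) and Ncam1 lower (9.31 CPM and 35.5 CPM), while Tubb3 (19.5 CPM and 30.05 CPM) and Pax6 (11.2 CPM and 10.6 CPM) were not called. Of 17 retinoid and Hox genes 3 reached 5 CPM, and the retinoic acid binding protein genes Crabp1 (17.4 CPM and 37.9 CPM) and Crabp2 (2.23 CPM and 5.23 CPM) were lower. Crabp2 reached 5 CPM with LIF alone, Crabp1 was short of 2-fold relative to genes of like GC content (-0.97), and the median over all 17 was 0.68.

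The shares called among cell cycle, glycolysis and stress response genes were near the 5.98% of all genes, and nothing particular to these lists is read from them. Called were 1 of 19 cell cycle genes, the cyclin gene Ccnd3 (41.6 CPM in L122A no-LIF and 92.4 CPM in L122A LIF cells), and 2 of 24 glycolysis and hypoxia genes, Hk2 and Ndrg1, all lower. Of 18 stress response genes 1, Atf3, was lower, and it was higher in EGFP cells. Of 12 imprinted genes the growth inhibitor gene Cdkn1c was higher (56.1 CPM and 23.6 CPM) and H19 lower (3.04 CPM and 7.53 CPM). Of 8 DNA methylation genes 1 was called, Dnmt3a, and of 2 fibroblast list genes Fbn1 was higher and Thy1 lower. No member was called among 14 p53 targets, 12 Polycomb, 18 cholesterol, 9 heat shock, 9 interferon, 11 iron, 8 YAP target, 7 germ cell and 1 cleavage stage genes; under total counts 1 p53 target and 1 cholesterol gene were called lower.

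**Figure D4:**
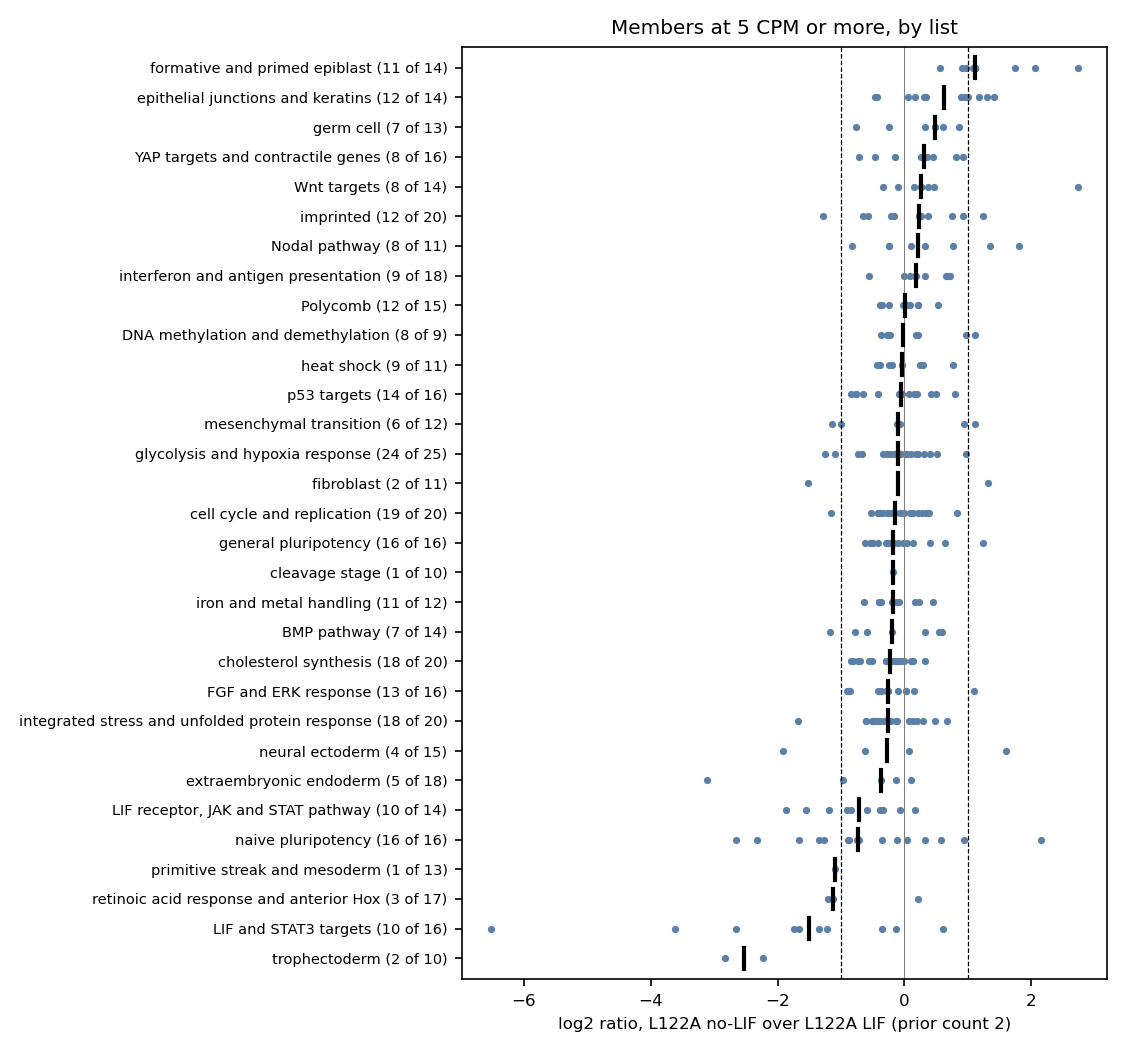
Log2 ratio, L122A no-LIF over L122A LIF, of the members at 5 CPM or more (blue points) of each of 31 lists, with the list median (black bar) and dashed lines at 2-fold; brackets give members at 5 CPM of those listed. Formative genes stand at a median of 1.11 and LIF and STAT3 targets at -1.51; the trophectoderm bar, at -2.53, rests on 2 genes admitted by their level with LIF, against -0.40 over all 10.

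Outside the lists, the largest increases were in genes of low level with LIF, which a ranking by ratio favours. The first was a feature the table names as a ribosomal protein S19 pseudogene, with 274 counts in the L122A no-LIF library and 1 in the L122A LIF library; it has near-identical copies, so its count is uncertain, and it had at most 0.148 CPM in the WT and EGFP libraries. Enpp2, which encodes autotaxin, the enzyme that makes lysophosphatidic acid, had 11.7 CPM in L122A no-LIF and 0.496 CPM in L122A LIF cells, 23.7-fold higher (13.0 to 48.1). It was also higher in WT and EGFP cells, with log2 ratios of 5.73 and 1.77 against 4.37 in L122A. Prss44, a serine protease gene, was 19.1-fold higher (9.41 to 45.1), the matrix genes Cthrc1 and Col14a1 12.4-fold and 9.75-fold, Slc5a11 11.1-fold, and Vrtn 9.74-fold. The others of the top 15 were Runx1t1, Mup6, Lef1, Nlrp4f, Selenop, Adgrf5, Myb and an unnamed clone gene, between 6.23-fold and 8.71-fold higher; Mup6 belongs to a family of near-identical copies.

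After Socs3, the largest decreases included genes that differ between transfectants and genes that were lower without LIF in each. Fcgr2b, an inhibitory antibody receptor gene, had 3 counts without LIF and 111 with LIF. Its log2 ratio was -4.49 in L122A, -2.70 in WT and -3.81 in EGFP cells, below 5 CPM in the last 2. Slc13a5, a citrate transporter gene, had 1.21 CPM in L122A no-LIF and 18.99 CPM in L122A LIF cells, 15.6-fold lower (10.4 to 24.7). In WT cells, where it was below 5 CPM, it had 1.71 CPM and 2.02 CPM. In EGFP cells, where it was below 5 CPM, Slc13a5 was also lower without LIF, with 0.496 CPM against 2.54 CPM (log2 ratio -2.20). Gna14, a G protein subunit gene, was 15.4-fold lower (10.6 to 23.0), and its log2 ratio was -3.88 in L122A, -4.29 in WT and -5.08 in EGFP cells. The protease gene Htra1 was 13.4-fold lower (0.759 CPM and 10.2 CPM), the protease inhibitor gene A2m 7.73-fold (3.34 CPM and 25.8 CPM) and Xaf1, a pro-apoptotic interferon-induced gene, 7.40-fold (3.39 CPM and 25.1 CPM). In WT and EGFP cells their log2 ratios were -1.56 and 0.48 for Htra1, -2.09 and -0.88 for A2m, and -0.71 and 0.52 for Xaf1. Htra1 was below 5 CPM in both of those pairs, and A2m in the EGFP pair. Also among the top 15 were Spef1, Bcl3, Lama1, Creb3l2, Fbxo2, Cmklr1 and Hs3st3b1, between 7.47-fold and 15.2-fold lower.

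By difference in CPM the mitochondrial ribosomal RNA genes mt-Rnr2 and mt-Rnr1 and the ribosomal RNA gene SSU_rRNA_5 led the gains, followed by Rps24, Rpl9, Rps25, Npm1, Eef1a1, Prdx1 and Ppia, none of them called. The 10 largest losses were in Lars2, Gm23935, Rps4x, Rplp1, Eef1g, Actb, Gapdh, Lap3, Atp5b and Tubb5. Of these only Lap3, a leucine aminopeptidase gene, was called, with 136 CPM in L122A no-LIF and 363 CPM in L122A LIF cells. Lars2 had 7914 CPM and 11701 CPM in these libraries, and Gm23935, a feature of 109 bases, 7656 CPM and 11082 CPM. Whether the counts of Lars2 and Gm23935 hold reads of other RNA was not tested. The 76 ribosomal protein genes had a median of 0.25 with 0 called in either direction, and 63 had a ratio above 0.

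Overlaps were counted with the withdrawals of the other transfectants, which share no library with this one. Of the genes higher in L122A cells 92 were also called higher in WT cells (32.1% of the L122A genes and 16.5% of the WT genes). Of the lower ones 115 were also called lower (37.6% and 25.2%). Among all genes at 5 CPM in the WT pair, 5.54% were called higher and 4.55% lower. With EGFP cells 51 higher genes were shared (17.8% of the L122A and 6.81% of the EGFP genes) and 71 lower ones (23.2% and 11.1%). Among all genes at 5 CPM in the EGFP pair, 7.44% were called higher and 6.33% lower. The percentages of L122A genes also count genes below 5 CPM in the other pair, which could not be called there. Called in opposite directions were 15 genes between L122A and WT and 56 between L122A and EGFP cells. Of the genes higher in L122A cells, 250 reached 5 CPM in the WT pair, and 10 of these were lower there (4.55% of all genes at 5 CPM). In the EGFP pair 223 reached it, and 33 of these were lower (6.33% of all). Of the genes lower in L122A cells, 233 reached 5 CPM in the WT pair, and 5 of these were higher there (5.54% of all). In the EGFP pair 213 reached it, and 23 of these were higher (7.44% of all). In all 3 transfectants 32 genes were called higher and 57 lower; the lower ones include Socs3, Bcl3, Klf4, Tbx3, Tfcp2l1, Stat3, Icam1, Gbx2, Tdh, Nr5a2, Tfap2c, Lama1 and Ncam1, and the higher ones Enpp2, Vrtn, Cthrc1, Cldn7 and Dsp.

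The L122A RA library shares its L122A LIF partner with this comparison, so its levels are given side by side only. Klf4 had 15.7 CPM without LIF, 24.3 CPM with RA and 100.02 CPM with LIF in L122A cells, and Socs3 0.202, 2.10 and 25.2 CPM. Tbx3 had 10.6 CPM without LIF but 284 CPM with RA, against 53.3 CPM with LIF, and Stat3 13.0, 83.7 and 47.5 CPM. Lef1 had 45.7 CPM without LIF, 0.533 CPM with RA and 6.81 CPM with LIF, and Otx2 9.87, 0.028 and 2.30 CPM. The high levels of Lef1 and Otx2 were thus seen without LIF and not with RA.

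The calls moved with the GC content of the transcript. In 5 classes of equal size, from the lowest GC content to the highest, 72, 61, 61, 45 and 32 genes were higher and 18, 36, 64, 88 and 94 lower, and the median log2 ratio ran from 0.18 to -0.11. It ran from -0.14 to 0.05 in WT and from 0.05 to -0.10 in EGFP cells. Measured relative to genes of like GC content, 251 of the 287 higher genes and 278 of the 306 lower ones were still called. The LIF and STAT3 targets then had 7 members lower and a median of -1.45, naive genes 5 lower and a median of -0.76, and formative genes 10 higher and a median of 1.15. The part of GC content in single genes was not tested.

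**Figure D5:**
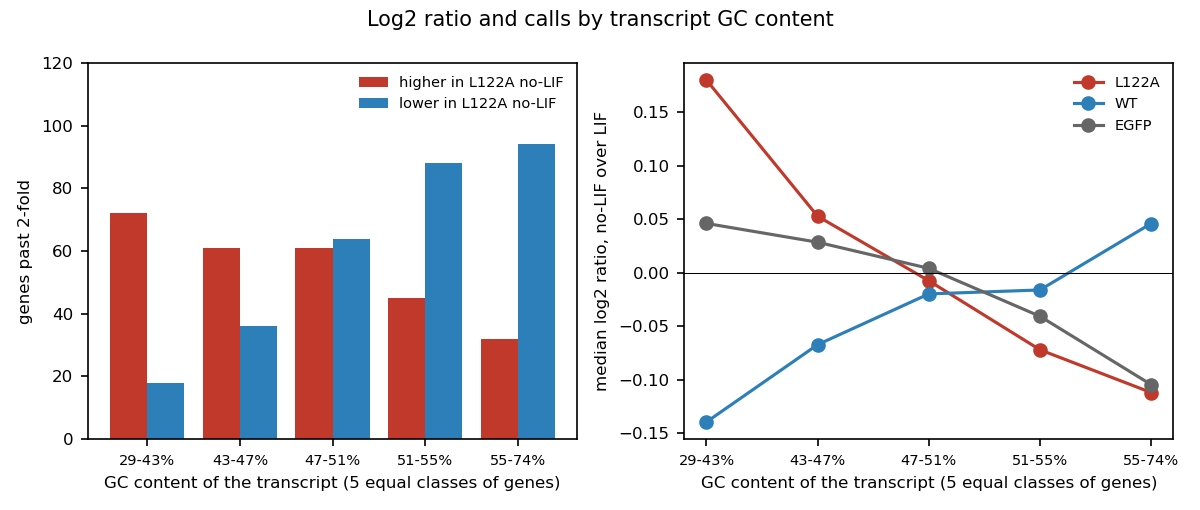
Left, genes higher (red) and lower (blue) by 2-fold or more in L122A no-LIF against L122A LIF, in 5 equal classes of transcript GC content; right, the median log2 ratio, no-LIF over LIF, of the same classes in L122A, WT and EGFP cells. Lower calls climb to 94 at high GC content, and the L122A median runs from 0.18 to -0.11.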

How the data were processed

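Per the submitters' processing notes, TopHat2 2.0.11 and the mm9 build were used; how reads were counted, filtered or assigned to a strand is not given in the sources used here. Per the file headers, the authors deposited 1 raw, unnormalized count per gene and library. The deposited FPKM values equal the count divided by length and the file's total within 1% for 100% of genes above 5 FPKM in every library. Names came from a newer annotation for 28692 of 33495 identifiers; coordinates are those of the table, written 1-based.

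Scaling used the trimmed-mean (TMM) factors of edgeR 4.0.16 in R 4.3.3 over genes at 1 CPM or more in 3 or more libraries (0.810 for L122A no-LIF, 0.917 for L122A LIF). Ratios and exact conditional 95% Poisson intervals, tested on simulated data, were computed with Python 3.11.15, numpy 2.4.6, pandas 2.3.3 and scipy 1.17.1, and figures with matplotlib 3.10.9. At these depths 3 counts are 0.152 and 0.135 CPM. Named are Nanog, members of 31 lists (455 of 466 entries matched), the 15 largest ratios and 10 largest CPM differences each way, and the 5 largest opposite responses. A few results that this rule covers are not reported here. The comparison and the lists were chosen with earlier results of these data known; other genes named are said to have been chosen after their values were seen. Ribosomal protein genes and GC content of the transcript (longest transcript, known for 98.1% of genes tested) were choices made with the data in view. Alternatives were 10 planned and 2 added. Genes with near-identical copies, and overlapping or antisense genes, have uncertain counts.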

Additional observations from a re-analysis of the deposited data

Results flagged for a closer look

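The 5 genes called in opposite directions in L122A and EGFP cells with the largest difference of log2 ratios were singled out, since each transfectant has 1 library per culture and the 2 ratios point opposite ways. In no case was the difference tested. With total counts the L122A log2 ratios of AC140333.1 and Scn3a were 0.87 and 0.98, short of 2-fold. Slc5a11, a sodium-coupled inositol transporter gene, had 6.53 CPM in L122A no-LIF and 0.586 CPM in L122A LIF cells, but 0.496 CPM in EGFP no-LIF and 6.29 CPM in EGFP LIF cells, a difference of 6.80 on the log2 scale. The unnamed clone gene AC140333.1 had 14.9 CPM and 7.17 CPM in L122A cells, and 0.763 CPM and 11.1 CPM in EGFP cells, a difference of 4.79. Capn3, a calpain protease gene, had 19.8 CPM and 7.40 CPM in L122A cells without and with LIF, and 0.610 CPM and 6.12 CPM in EGFP cells, a difference of 4.59. Nphs1, which encodes the adhesion protein nephrin, had 8.20 CPM and 2.66 CPM in L122A cells, and 1.30 CPM and 9.90 CPM in EGFP cells, a difference of 4.46. Scn3a, a sodium channel gene, had 15.1 CPM and 6.72 CPM in L122A cells, and 0.572 CPM and 5.82 CPM in EGFP cells, a difference of 4.35; in WT cells it was also lower without LIF, with 5.10 CPM against 11.5 CPM. In the other 4 genes the WT log2 ratio was positive, between 0.78 and 1.57.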

How the results depend on the processing

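With 1 library a side, no test, no replicate and nothing to leave out, these ranges show only how values move with processing. No called value changed sign in any alternative run; the Polycomb median, 0.02 as reported, was -0.16 with total counts. Genes called higher numbered 287 as reported, 152 with total counts, 979 with a 1 CPM minimum, 2949 with none, 67 by FPKM and 132 by Poisson interval; genes called lower numbered 306, and 822 at 1 CPM, 2250 with no minimum, 191 by FPKM and 153 by Poisson interval. Formative genes called higher were 3 with total counts, 2 by FPKM and 4 by Poisson interval, against 8, and their median was 0.73 by FPKM. The general pluripotency median was -0.36 with total counts and -0.32 by FPKM, and the naive median -0.91 with total counts. Calls shared with EGFP cells were 25 higher with total counts; at 1 CPM, calls shared with WT cells were 284 higher and 252 lower, and with EGFP cells 191 and 215. RLE factors, prior counts of 0.5 and 5, TMM from the L122A pair or without the low-count filter, ratios relative to like GC content, and leaving out ribosomal RNA and mitochondrial genes moved none of these counts by over 1.5 times. The last 2 of the 12 alternatives, TMM without that filter and the GC-relative ratio, were chosen after seeing the data. No paired analysis was possible because each transfectant has 1 library per culture and the single pair leaves no residual.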

Other observations

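Some genes outside the lists stood out, chosen after their values were seen. Gjb5, a connexin gene, had 15.1 CPM in L122A no-LIF and 61.1 CPM in L122A LIF cells, 4.04-fold lower (3.56 to 4.59), and its log2 ratio was -4.36 in WT cells. Sets of 3 genes called lower, each within 100 kb of the next called gene, included Nfic, Gna15 and Aes on chromosome 10, and Mesp2, Anpep and Arpin on chromosome 7.

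Kit, the stem cell factor receptor gene, was 4.003-fold lower (3.65 to 4.39), Sgk1, a serum- and glucocorticoid-induced kinase gene, 4.22-fold lower (3.96 to 4.51) and the Wnt receptor gene Fzd5 6.29-fold lower (4.46 to 9.08) in L122A no-LIF against L122A LIF cells. Wls, needed for Wnt secretion, was 4.85-fold higher (3.61 to 6.63), and Efnb2, an ephrin ligand gene, 3.72-fold higher (3.03 to 4.57). Kit, Fzd5, Wls and Efnb2 were called in the same direction in all 3 transfectants. S100a6, a calcium-binding protein gene, had 26.9 CPM in L122A no-LIF and 143 CPM in L122A LIF cells. In WT cells it had 10.5 CPM and 62.4 CPM, whereas EGFP cells had 423 CPM without and 168 CPM with LIF. The zinc finger genes Zfp978, Zfp980, Zfp981, Zfp982 and Rex2 were called higher in L122A cells without LIF and lower in EGFP cells; Zfp981 had 95.4 CPM without and 42.0 CPM with LIF in L122A cells, and 19.6 CPM and 102 CPM in EGFP cells. Their transcripts are low in GC content (35.5% to 39.6%), and relative to genes of like GC content the log2 ratios of Zfp980 and Zfp981 were 0.83 and 0.90, short of 2-fold. These genes have close relatives, so reads may be split among copies.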
